A study of Mus musculus with 16 samples.

Results

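The clustered histone genes were taken as every gene whose symbol in the deposited tables begins with Hist1h, Hist2h, Hist3h or Hist4h. This rule used names and no measured value, and it found 68 of the 23420 genes in the RNA tables and the same 68 among the 22269 gene intervals of the ChIP tables. On GRCm38 (mm10), 54 of them lay in the Hist1 cluster (chr13:21715763-23934851), 10 in Hist2 (chr3:96219865-96279001), 3 in Hist3 (chr11:58948911-58956674) and 1, Hist4h4, alone at chr6:136801553-136804431. By protein, 6 encoded the linker histone H1, 18 H2A, 19 H2B, 12 H3 and 13 H4, counting pseudogenes under the protein they are named for.

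Core histones H2A, H2B, H3 and H4 form the octamer around which DNA is wrapped, and H1 binds the linker between octamers. The clustered copies are the replication-dependent genes. They are transcribed mainly in S phase through NPAT, and their mRNAs end in a stem-loop bound by SLBP in place of a poly(A) tail, although some of them also give polyadenylated mRNA in cells that have left the cycle. Histone H3 is also the substrate of EZH2, the catalytic subunit of Polycomb repressive complex 2, which places the repressive mark H3K27me3.

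The series compared mouse CD4+ T cells of the strain Ezh2 fl/fl.CD4Cre, labelled Ezh2-/- and called Ezh2KO here, with cells of Ezh2 fl/fl mice, called control here. Both genotypes carry the floxed allele, and only the Ezh2KO mice carry Cre, which as background Cd4 regulatory sequence switches on in the developing thymus. Naive cells were sorted and activated with anti-CD28 (soluble, 1 ug/ml) on anti-CD3 (plate-bound, 5 ug/ml). Th0 cultures, neutrally activated cells, received human IL-2 (50 U). The iTreg cultures, in which regulatory T cells are induced, received more of it (200 U/ml) together with TGF-b1 at 5 ng/ml. The sample titles give day 4 for Th0 RNA and day 5 for iTreg RNA while the protocol gives day 4 for both, so culture agents and a possible day of difference cannot be told apart. RNA was sequenced from 3 libraries of each genotype in each culture (12 in all), and H3K27me3 ChIP from 2 libraries of each genotype in Th0 (4 in all). Libraries are named here by the number in their title. The labels do not say whether libraries of a group came from separate mice, so p-values measure the spread between these libraries.

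RNA libraries held 21910114 to 28443427 reads counted in genes and ChIP libraries 11124172 to 15103496. Ezh2 RNA was 305 ± 8.57 CPM (the raw count divided by the library's total count and multiplied by 1000000; SD, n = 3) in Th0 control and 157 ± 11.1 (n = 3) in Th0 Ezh2KO, and 219 ± 46.1 (n = 3) against 96.5 ± 41.5 (n = 3) in iTreg. The count covers the whole gene, so reads outside the deleted part enter it. The iTreg libraries Ezh2KO.165 and control 177 stood apart from the other iTreg libraries of their groups, and calls of members with genotype and culture are given below with and without them. RNA of 10 T-cell genes summed to 2276 to 2673 CPM in Th0 Ezh2KO and 3032 to 4783 in the other libraries, and 6 erythroid genes to at most 1.09.

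The 6 promoter windows below are shown first because their genes carry the results that follow. Hist1h2ag was the member with the most reads, and Hist1h2bj is its neighbour on the other strand. Hist1h2bk holds the octamer, Hist1h3c was the member most reduced in iTreg Ezh2KO.165, Hist1h4i was the 1 member called between cultures in control cells in the fit of all 12 libraries, and Hist3h2ba was the 1 member called higher with Ezh2 deletion in iTreg in the fit of 10. Each run is the 150 bases before the RefSeq transcription start on GRCm38.p6, read 5′ to 3′ on the gene's strand, with TATAAA (gene strand), CCAAT and the octamer ATTTGCAT (both on either strand) in capitals.
Hist1h2ag (chr13:22042950-22043099, minus strand): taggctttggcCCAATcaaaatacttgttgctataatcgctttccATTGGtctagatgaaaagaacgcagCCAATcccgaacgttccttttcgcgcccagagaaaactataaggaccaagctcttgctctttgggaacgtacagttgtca
Hist1h2bj (chr13:22043048-22043197, plus strand): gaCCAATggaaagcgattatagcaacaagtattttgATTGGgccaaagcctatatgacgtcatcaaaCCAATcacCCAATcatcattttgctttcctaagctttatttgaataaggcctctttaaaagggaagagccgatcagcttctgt
Hist1h2bk (chr13:22035671-22035820, plus strand): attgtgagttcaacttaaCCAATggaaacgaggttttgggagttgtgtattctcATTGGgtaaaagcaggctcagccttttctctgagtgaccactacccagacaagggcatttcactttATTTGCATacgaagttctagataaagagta
Hist1h3c (chr13:23745522-23745671, minus strand): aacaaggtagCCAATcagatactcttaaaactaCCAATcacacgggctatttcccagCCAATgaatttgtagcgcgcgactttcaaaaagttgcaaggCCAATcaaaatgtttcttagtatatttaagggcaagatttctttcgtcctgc
Hist1h4i (chr13:22041363-22041512, minus strand): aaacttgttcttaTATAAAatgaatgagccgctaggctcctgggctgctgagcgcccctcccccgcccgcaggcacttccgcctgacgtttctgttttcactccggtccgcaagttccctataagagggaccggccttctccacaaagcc
Hist3h2ba (chr11:58948761-58948910, plus strand): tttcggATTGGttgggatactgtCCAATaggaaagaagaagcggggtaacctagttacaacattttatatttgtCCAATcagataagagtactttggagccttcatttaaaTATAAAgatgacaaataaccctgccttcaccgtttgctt
The first pair of windows overlaps, since Hist1h2ag and Hist1h2bj are divergent neighbours and share the stretch between their starts.

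RefSeq windows matched 62 of the 68 members, giving 63 windows. Hist1h2bc, Hist1h3a, Hist1h3f, Hist2h2be, Hist2h4 and Hist3h2bb-ps had none. In the 250 bases before the start, CCAAT occurred on either strand in 52 of the 63 windows (82.5%), against 33.8% of all 32851 promoter windows of that length. All 18 H2A and all 17 H2B windows held it, as did 8 of 10 for H3 and 6 of 6 for H1, while only 3 of 12 H4 windows did. TATAAA occurred on either strand in 29 of 63 (46.0%) against 12.4% of all promoters. The octamer occurred in 14 of 63 (22.2%) against 1.6%. It was found in 7 H2B windows, always on the gene strand, and in 7 H2A windows, always on the opposite strand, and in none of the H1, H3 or H4 windows. H2A and H2B genes stood head to head in 13 neighbouring pairs, with 167 to 305 bases (median 240) between the annotated starts. A site between such a pair can fall in the windows of both genes on opposite strands, as the octamer of Hist1h2bk and Hist1h2ah did. The 14 windows with the octamer are therefore not 14 separate sites. These motif matches are letters in a window and not measured binding.

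RNA from the members was low for genes whose protein is so abundant. Summed over all 68, reads made up 267 to 290 CPM in Th0 control and 294 to 331 in Th0 Ezh2KO. The iTreg sums were 262, 234 and 185 in control libraries 154, 155 and 177 and 201 and 194 in Ezh2KO.150 and Ezh2KO.153, with 138 in Ezh2KO.165. The labels name the TruSeq RNA v2 kit, which as background selects polyadenylated RNA, so stem-loop mRNAs without a tail are expected to be captured poorly and these sums do not measure the whole histone mRNA pool. In bulk RNA, fewer cells in S phase and less histone mRNA per cell cannot be told apart.

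H2A genes led the levels. Per kilobase of the length in the RNA tables, the mean over 12 libraries was 30.6 CPM per kb for Hist1h2ah and Hist1h2ad, 29.6 for Hist1h2ai, 28.7 for Hist1h2ag and 26.2 for Hist1h2an, followed by the H4 gene Hist1h4i at 24.5. Hist1h2bj, the leading H2B gene, was at 16.8 and Hist1h3c, the leading H3 gene, at 12.05 CPM per kb. The order among the leading H2A genes cannot be read as a difference, because their counts were nearly the same in every library. In Th0 control 173, for instance, Hist1h2ab, Hist1h2ac, Hist1h2ad, Hist1h2ae, Hist1h2ah and Hist1h2ai had between 291 and 315 reads, and in iTreg Ezh2KO.165 between 91 and 101.

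This near identity ran through the cluster. Among the 51 members with a mean count of at least 20, 22 fell into 6 sets in which a gene's counts differed from those of at least 1 other by less than independent counting gives (mean squared difference over the sum below 0.5, where 1 is the value for independent counts). Besides the H2A set these were Hist1h2ba with Hist1h2bh, Hist1h2bj with Hist1h2bk, Hist1h2bl with Hist1h2bn, 5 H3 genes (Hist1h3a, b, d, h and i) and 5 H4 genes (Hist1h4a, c, h, j and k). Over the 1275 pairs compared, some values below 0.5 can arise without shared reads. The values of Hist1h2ba with Hist1h2bh (0.496) and of Hist1h2bj with Hist1h2bk (0.441) lay close to the limit. In the H2A and H3 sets the largest pair values were 1.38 and 1.14, so not every pair in a set was this close. Many clustered copies of a family have nearly the same coding sequence, but sequences were not compared here. How the authors counted reads that map to several copies is not given in the sources used here. The members of a set are therefore not treated as separate genes. A sum may hold the same read more than once, and a count of members called can overstate how many genes changed. No read was counted in any RNA library for 5 members (Hist1h2ao, Hist1h2ap, Hist1h2bq, Hist1h2br and Hist2h2aa1), where a count of 0 allows up to 3 reads per library. Hist1h1t and Hist1h4m had 1 read over all libraries, Hist1h2aa 2 and Hist2h2aa2 12. After a filter on low counts, 55 members were tested and 13 were not.

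**Figure D1:**
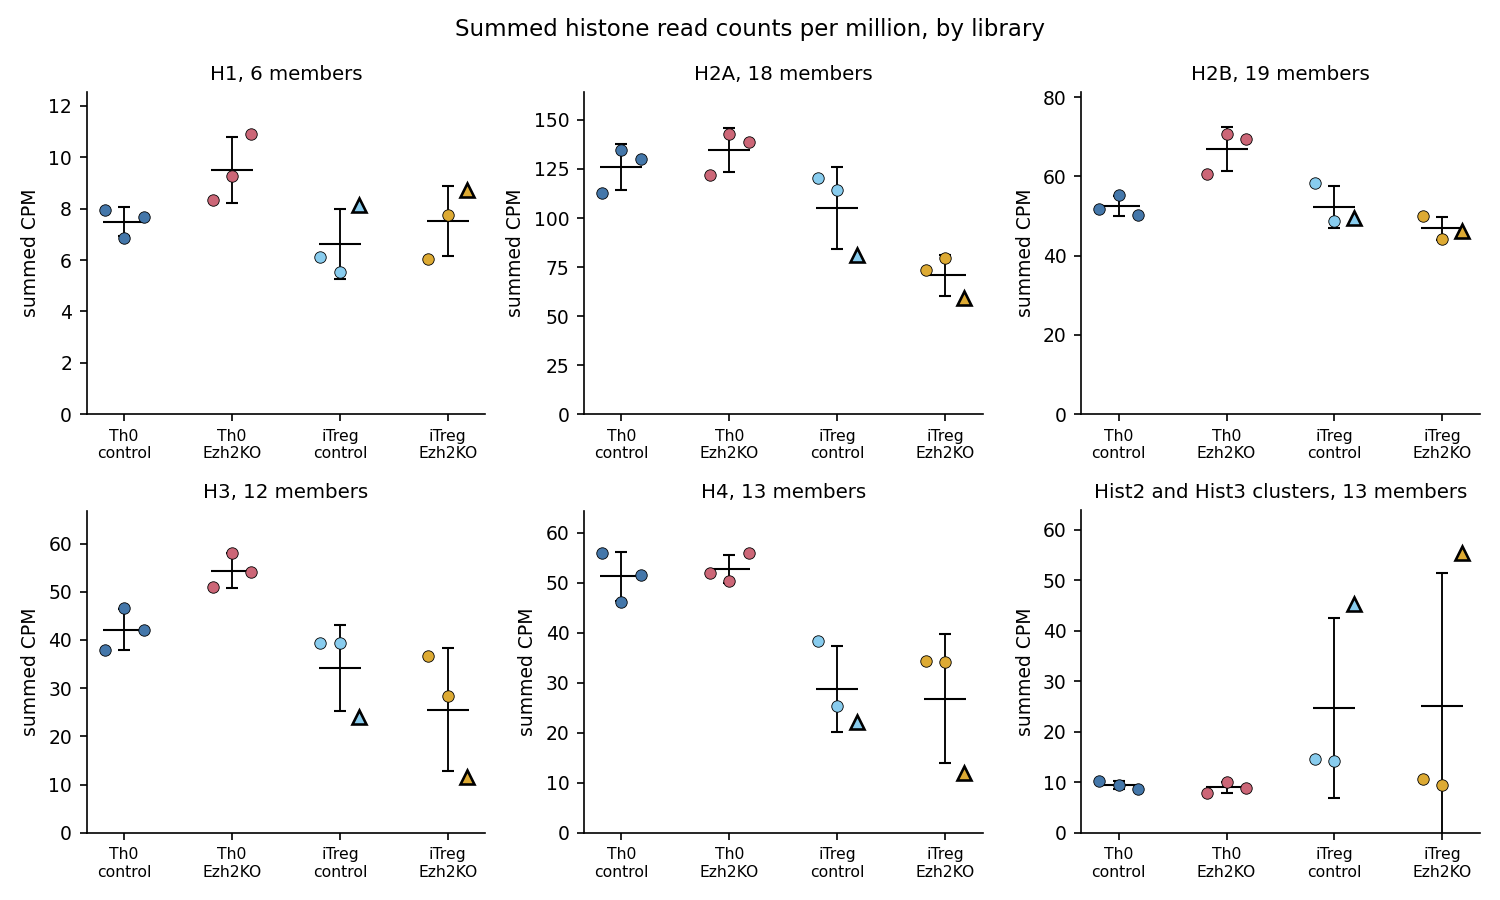
Summed CPM (vertical axes, from 0) of the members of each histone family and of the Hist2 and Hist3 clusters, in 12 RNA libraries grouped by culture and genotype. Points are libraries, triangles the iTreg libraries Ezh2KO.165 and control 177, and lines the mean ± SD (n = 3). H3 is between 50.9 and 58.1 in Th0 Ezh2KO and 11.6 in iTreg Ezh2KO.165. Hist2 is highest in iTreg control 177 (32.6) and Hist3 in iTreg Ezh2KO.165 (28.5).

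The clearest pattern among the members was a split between clusters inside the iTreg groups. In Ezh2KO.165 and control 177, most tested members of the Hist1 cluster were lower than the mean of the other libraries of the same group. The 5 tested members of Hist2 and 2 of Hist3 were higher. The smallest rise was that of Hist2h2ac in control 177, at 0.685 CPM against 0.762 and 0.571 in control 154 and 155. On the log2(CPM + 0.5) scale, 43 of the 55 tested members were lower in both libraries, with Ezh2KO.165 set against Ezh2KO.150 and Ezh2KO.153, and control 177 against control 154 and 155, and 8 were higher in both. The 55 members' medians were -0.94 for Ezh2KO.165 and -0.59 for control 177, while the medians of all 12845 genes tested were -0.01 and 0.00, and 5251 genes were lower and 5253 higher in both. These are differences of 1 library from 2 and carry no test.

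H3 genes of Hist1 fell most. All 9 were lower in both libraries, by 1.17 to 2.79 on the log2 scale in Ezh2KO.165 and by 0.57 to 1.60 in control 177. Hist1h3c read 6.20 and 4.85 CPM in iTreg Ezh2KO.150 and Ezh2KO.153, 0.365 in Ezh2KO.165 and 6.09, 5.75 and 1.61 in iTreg control 154, 155 and 177, against 6.39 to 8.21 in the Th0 libraries. The last library of each iTreg group is the low one, and in Ezh2KO.165 the gene was close to undetected. The 3 Hist2 H3 genes, which encode nearly the same protein, were higher in both libraries. Hist2h3c1 read 1.07, 0.815 and 5.61 CPM in the iTreg Ezh2KO libraries and 1.9, 2.00 and 6.73 in iTreg control.

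H4 and H2A genes of Hist1 followed the Hist1 H3 genes with smaller differences. All 10 Hist1 H4 genes were lower in both (median -1.27 in Ezh2KO.165 and -0.52 in control 177), as were all 10 Hist1 H2A genes (median -0.91 and -0.67). Of 13 Hist1 H2B genes 12 were lower in both, and the exception was Hist1h2bc, at 6.07, 5.49 and 7.12 CPM in iTreg Ezh2KO and 6.70, 5.26 and 5.88 in iTreg control. Hist1h2bc thus stayed within a narrow range where its family members dropped.

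The 8 members higher in both libraries were Hist3h2a, Hist3h2ba, Hist2h2be, Hist2h3c1, Hist2h3c2, Hist2h3b, Hist2h2ac and Hist1h1c. Hist3h2a, an H2A gene, read 2.68, 2.49 and 21.6 CPM in iTreg Ezh2KO and 2.97, 3.26 and 10.3 in iTreg control. Hist2h2be, an H2B gene, read 2.64, 2.87 and 16.5 in iTreg Ezh2KO and 5.86, 6.32 and 20.2 in iTreg control. In both genes the libraries Ezh2KO.165 and control 177 lie far above every other one of the 12. Hist1h1c, which encodes linker histone H1.2, was the Hist1 member among the 8, at 3.88, 4.89 and 7.81 CPM in iTreg Ezh2KO and 4.42, 3.47 and 6.17 in iTreg control.

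The clusters' shares of all histone reads shifted accordingly. Hist1 held 95.6% to 96.7% of the members' summed CPM in the Th0 libraries and 92.7% to 94.0% in the other iTreg libraries, but 74.0% in control 177 and 57.4% in Ezh2KO.165. Hist3, with 3 genes, held 20.7% in Ezh2KO.165. The lengths in the RNA tables also differed between the groups of members: 5 of the 8 that were higher had at least 1000 bases (median 1290.5), against 4 of the 43 that were lower (median 411). The 2 libraries differed in other genes as well. A list of 30 S-phase genes summed to 8129 to 8487 CPM in Th0, 5410 to 6223 in the other iTreg libraries, 2932 in control 177 and 957.5 in Ezh2KO.165. Slbp, the stem-loop binding protein, read 229.6 and 224 CPM in iTreg Ezh2KO.150 and Ezh2KO.153 and 47.5 in Ezh2KO.165, and 227, 214 and 136 in iTreg control. Itgam, one of 10 myeloid genes listed, read 24.7 in control 177 and 8.08 in Ezh2KO.165 and 0.86 to 2.65 in the other iTreg libraries, while S100a8 and S100a9 were at 0 in all 12. The part of these differences in the histone pattern was not tested.

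**Figure D2:**
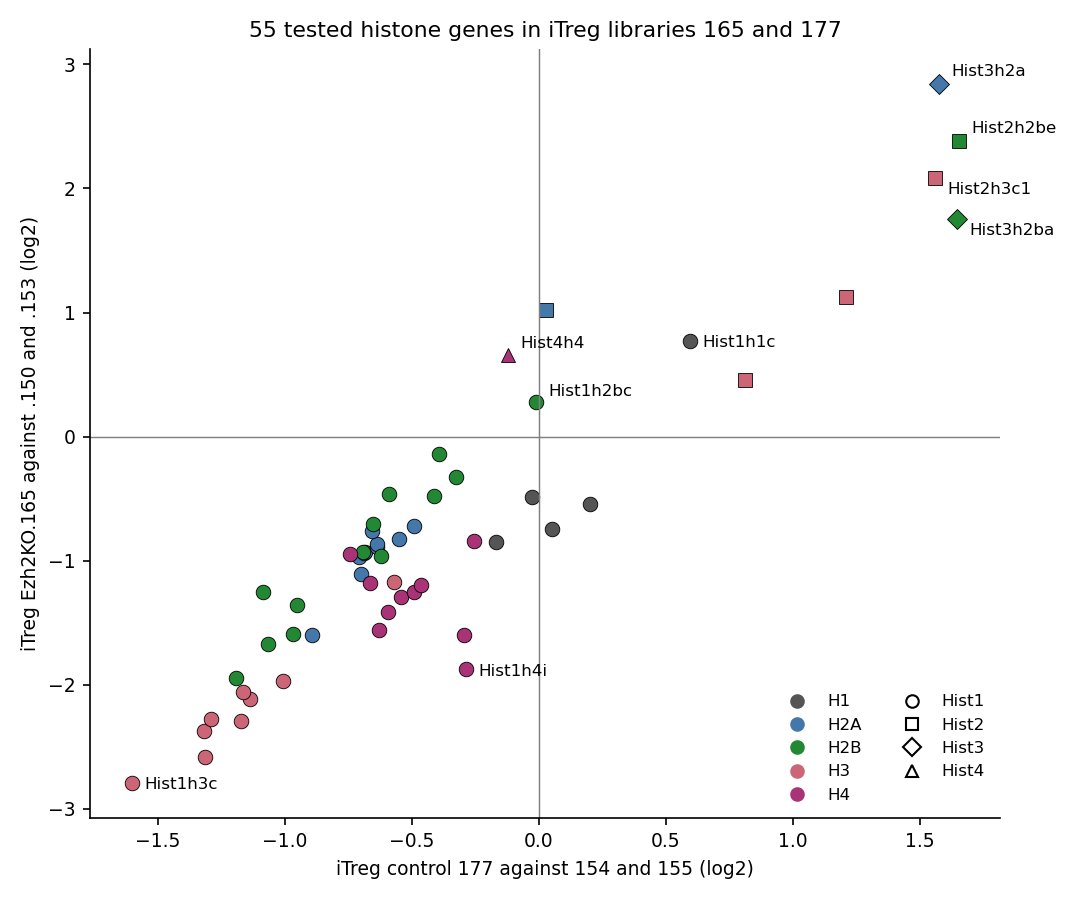
Each point is 1 of 55 tested histone genes, placed by its difference on the log2(CPM + 0.5) scale in iTreg control 177 against 154 and 155 (horizontal) and in iTreg Ezh2KO.165 against the other Ezh2KO libraries (vertical), with colour for family and shape for cluster. Hist1 genes fill the lower left, down to -2.79 for Hist1h3c, and Hist2 and Hist3 genes the upper right, up to 2.84 for Hist3h2a.

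The genes outside the clusters whose RNA followed the members most closely were found by Pearson's r between each gene's log2(CPM + 0.5) and the mean over the 55 members across the 12 libraries, leaving out predicted genes named Gm. Among the 5 highest were Tmem109 (r = 0.986), Dazap1 (0.983), an RNA-binding protein, Isyna1 (0.980), an inositol phosphate synthase, and Tubb4b (0.980), a beta-tubulin. Tubb4b ran from 744 CPM in Th0 Ezh2KO.165 to 131 in iTreg Ezh2KO.165. The 12 libraries fall into 4 groups with a library apart in each iTreg group, so these values are a description.

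In Th0 cells no member passed the test for a change with Ezh2 deletion in the fit of all libraries, and without the 2 iTreg libraries the members called higher were H2B, H3 and H1 genes, at a share near that of all genes. With all 12 libraries in 1 fit (edgeR quasi-likelihood test, Benjamini-Hochberg adjusted p under 0.05), 0 of 55 members were called, where 12% of the 12845 genes were. At an unadjusted p under 0.05 the count was 1 (Hist1h1a), and DESeq2 and limma voom also called 0. The fitted change was above 0 in 49 of the 55, with a median of 0.17 on the log2 scale against -0.00 for all genes. By family the medians were 0.44 for H1 (5 genes), 0.07 for H2A (12), 0.40 for H2B (15), 0.36 for H3 (12) and 0.14 for H4 (11).

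The spread used by that fit is shared with the iTreg groups. Without iTreg Ezh2KO.165 and control 177, 12 members were called higher and 1 lower, where 51.6% of 12978 genes were called (26.3% higher and 25.3% lower). The Th0 libraries alone gave 13 higher and 2 lower, with 52.1% of genes called. Of the 12, 7 were H2B genes, 3 H3 and 2 H1, and none was H2A or H4. The 3 H3 genes (Hist1h3a, Hist1h3h and Hist1h3i) all lie in the H3 set of near-identical counts. Among the H2B genes, Hist1h2bj and Hist1h2bk form another such set. The largest changes were in the H1 genes, with Hist1h1a at 1.61 ± 0.47 (SE; adjusted p = 0.0115, edgeR) and Hist1h1b at 1.05 ± 0.41 (adjusted p = 0.0486, edgeR). Both are rare in these libraries: Hist1h1a read 0.447, 0.0742 and 0.306 CPM in Th0 control and 0.657, 0.706 and 1.20 in Th0 Ezh2KO. The Ezh2KO values all lay above the control values.

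Hist1h2bj read 7.04, 7.45 and 5.69 CPM in Th0 control (173, 176, 177) and 8.50 in Th0 Ezh2KO.165, with 9.96 and 9.21 in Ezh2KO.174 and Ezh2KO.175, a change of 0.42 ± 0.13 (adjusted p = 0.0161, edgeR, 10 libraries). Hist1h2bk, which was paired with it by counts, changed by 0.37 ± 0.13. Both sets of 3 libraries were apart for each gene. Summed over the 12 H3 genes, Th0 control read 37.9, 46.5 and 42.0 CPM and Th0 Ezh2KO 50.9, 58.1 and 54.1, again without overlap, while the 18 H2A genes read 113 to 135 in control and 122 to 143 in Ezh2KO. Over all members tested, CPM did not overlap between genotypes for 19 with Ezh2KO higher, against 33.2% of all genes, and for 1 with Ezh2KO lower, against 26%. The single one was Hist3h2a, at 3.46, 2.11 and 1.87 CPM in control and 1.31, 1.26 and 1.41 in Ezh2KO (log2 change -0.93 ± 0.23, adjusted p = 0.00456, edgeR, 10 libraries, and -0.93 ± 0.84, adjusted p = 0.627, with all 12). Hist3h2a was therefore opposite in direction to most members in Th0.

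Markers of other cells differed with genotype too. All 8 B-cell genes listed were called higher in Th0 Ezh2KO, and their sum was 29.6 to 55.1 CPM in Th0 control and 92.9 to 216 in Th0 Ezh2KO, with none at 0. Of 16 RNAs without poly(A) tails listed, 13 were in the tables and summed to 3.38 to 3.86 CPM in Th0 control and 9.89 to 11.4 in Th0 Ezh2KO. Rpph1, the RNA of RNase P, changed by 1.88 ± 0.33 (adjusted p = 0.00576, edgeR, 12 libraries). A list of 5 Treg genes, of which 3 were called lower, summed to 2859 to 2955 in control and 585 to 938 in Ezh2KO. The part of these in the histone values was not tested.

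In iTreg cells no member passed the test for a change with Ezh2 deletion in the fit of all libraries. Without the 2 libraries that stood apart, which leaves 2 per genotype, 10 of 12 H2A genes were called lower, where 28.3% of all genes were. Of these 10, 6 form 1 set of near-identical counts, and the members as a whole were called lower at a smaller share than all genes. The fit of all 12 libraries called 0 of 55 members, where 16.7% of genes were called. At an unadjusted p under 0.05 the count was 10 (9 lower, all of them H2A, and Hist3h2ba higher), and DESeq2 called 3 lower and limma voom 0. Hist1h2af had the smallest p, with a change of -0.81 ± 0.25 (adjusted p = 0.0520, edgeR). The members' median was -0.31 against 0.01 for all genes, and by family -0.68 for H2A, -0.42 for H3, -0.15 for H2B, -0.14 for H4 and 0.17 for H1. These medians in the 10 libraries were -0.63 for H2A, -0.28 for H3, -0.12 for H2B, 0.04 for H4 and 0.27 for H1. CPM did not overlap between genotypes for 2 members lower in Ezh2KO, against 12.8% of all genes, and for 0 higher, against 12.7%.

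Without iTreg Ezh2KO.165 and control 177, leaving 2 libraries per genotype, 13 members were called lower and 1 higher, where 57.1% of 12978 genes were called (28.3% lower and 28.7% higher). Of the 13, 10 were H2A genes, and 6 of these form the set of near-identical counts. Hist1h2ag read 15.1 and 14.0 CPM in control 154 and 155 and 9.21 and 9.82 in Ezh2KO.150 and Ezh2KO.153 (-0.61 ± 0.13, adjusted p = 0.0011, edgeR), and 8.74 and 4.15 in control 177 and Ezh2KO.165. Over all 6 libraries the genotypes overlapped, with control 177 below Ezh2KO.150 and Ezh2KO.153, and the change in the fit of 12 was -0.70 ± 0.31 (adjusted p = 0.169, edgeR). CPM of the 4 libraries did not overlap for 23 members lower in Ezh2KO, against 39.9% of all genes, and for 6 higher, against 40%. Hist2h2be changed by -1.14 ± 0.19 (adjusted p = 0.000158), Hist2h3c1 by -1.04 ± 0.31 (0.0104), Hist2h2ac by -1.07 ± 0.44 (0.0492) and Hist4h4 by -0.66 ± 0.26 (0.0450), with edgeR's adjusted p from the 10 libraries in brackets. With all 12 the same genes changed by -0.55, -0.50, -0.20 and -0.31, with adjusted p of 0.707, 0.747, 0.866 and 0.560 (edgeR), and Hist2h2be was at 0.26 (adjusted p = 0.874, edgeR) without control 177. The iTreg libraries alone called 0 members, with 4.34% of genes called and 0 members at an unadjusted p under 0.05.

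Hist3h2ba, an H2B gene, was the exception. It read 0.343, 0.367 and 2.18 CPM in iTreg control (154, 155, 177) and 1.65 and 1.46 in iTreg Ezh2KO.150 and Ezh2KO.153, with 6.44 in Ezh2KO.165. Over all 6 libraries the genotypes overlapped, with control 177 above Ezh2KO.150 and Ezh2KO.153. Its change was 2.12 ± 0.38 (adjusted p = 0.000334, edgeR) in the 10 libraries and 1.73 ± 0.76 (adjusted p = 0.173) in all 12. Hist3h2bb-ps, the third Hist3 member and a pseudogene, was at most 0.502 CPM. Among other cells' markers, 6 CD8 and NK genes summed to 37.2 to 47.6 CPM in iTreg control and 137 to 190 in iTreg Ezh2KO, with Ncr1 at 0 in all iTreg libraries. The 8 B-cell genes, 5 of them called lower, summed to 12.8 to 13.9 CPM in iTreg control and 4.07 to 5.98 in iTreg Ezh2KO. A list of 5 Treg genes, of which 3 were called lower, summed to 3861 to 5559 in iTreg control and 1146 to 1638 in iTreg Ezh2KO. In Ezh2KO.165, however, Ctla4 (577 CPM) and Ikzf2 (220) were above every iTreg control library (at most 469 and 117). The part of these markers in the histone values was not tested.

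**Figure D3:**
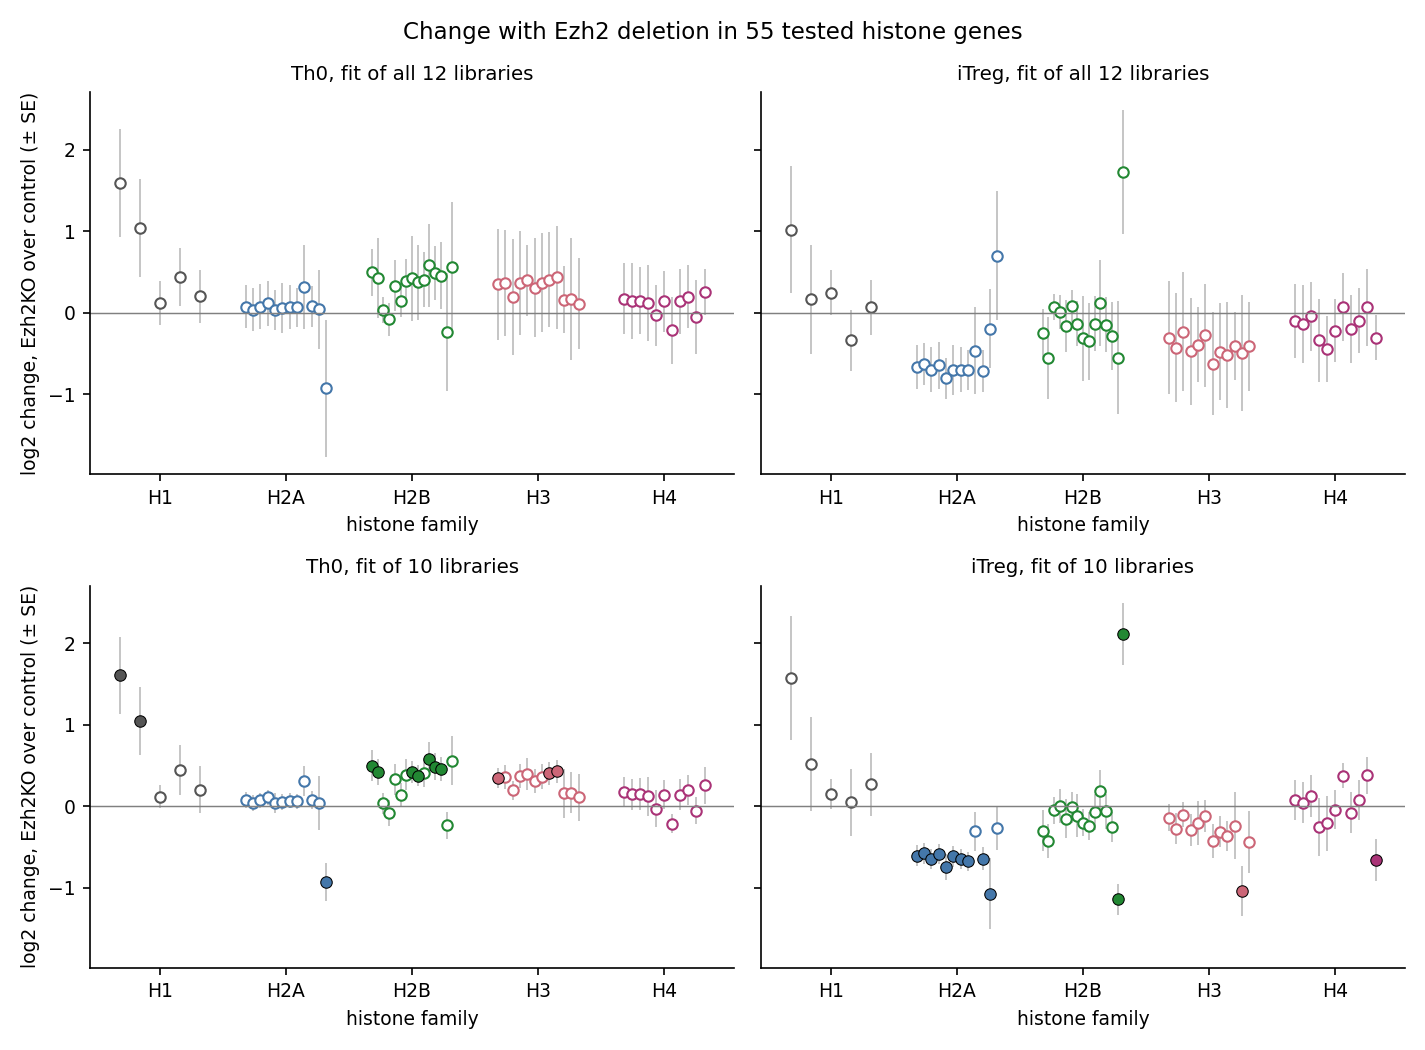
Fitted log2 change of each tested histone gene with Ezh2 deletion (points, ± SE) by family, in Th0 (left) and iTreg (right), from the fit of all 12 libraries (top) and of the 10 without iTreg Ezh2KO.165 and control 177 (bottom). Filled points have an adjusted p under 0.05 in edgeR: 0 and 0 in the top panels, 13 and 14 in the bottom ones.

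Whether the change with genotype differed between cultures was tested as an interaction. With all 12 libraries 0 of 55 members were called, where 4.49% of genes were, with 1 at an unadjusted p under 0.05 and 0 by DESeq2 and by limma voom. In the 10 libraries 23 were called, 21 of them with a lower change in iTreg, where 41.2% of genes were called (21.3% lower and 19.9% higher). The 21 held 9 H2A, 5 H2B and 6 H3 genes and Hist4h4. Of the 9 H2A genes, 6 form the set of near-identical counts, and Hist1h3b, Hist1h3d, Hist1h3h and Hist1h3i lie in the H3 set. Hist1h2ai had the smallest p (-0.74 ± 0.15, adjusted p = 0.00161, edgeR). The 2 with a higher change in iTreg were Hist3h2ba (1.56 ± 0.50, edgeR adjusted p = 0.0224) and Hist1h4i (0.59 ± 0.19, adjusted p = 0.0259).

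**Figure D4:**
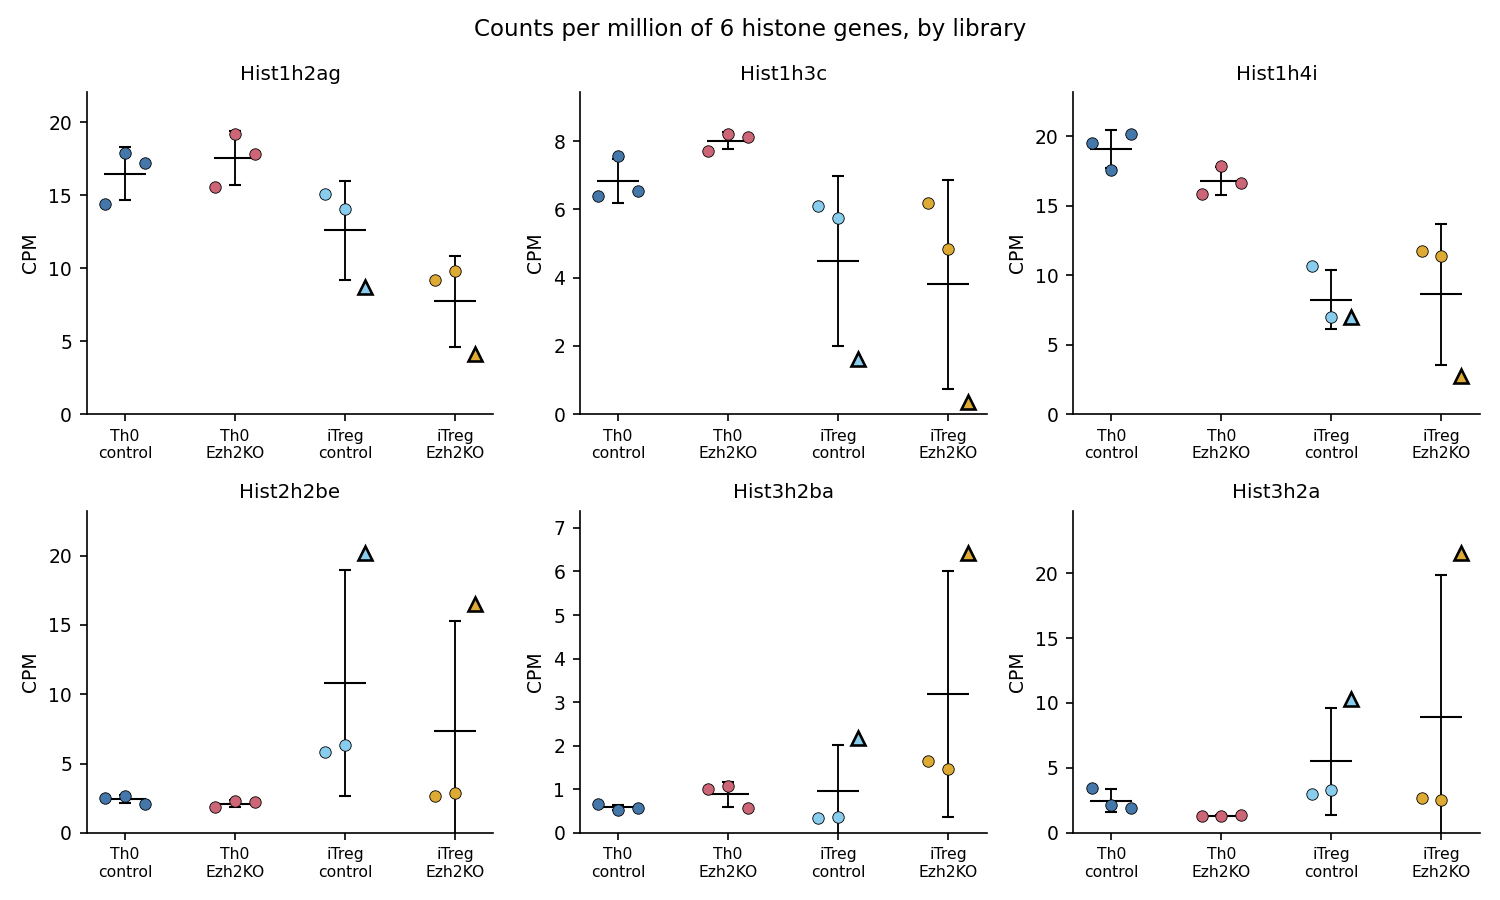
CPM (vertical axes, from 0) of 6 histone genes in the 12 RNA libraries, grouped by culture and genotype. Points are libraries, triangles the iTreg libraries Ezh2KO.165 and control 177, and lines the mean ± SD (n = 3). Hist1h4i is between 15.9 and 20.2 in Th0 and at most 11.7 in iTreg, and Hist2h2be, Hist3h2ba and Hist3h2a are highest in the triangles.

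Between the cultures, H4 genes were lower in iTreg than in Th0 in control cells. Hist1h4i, the H4 gene with the most reads, read 19.5, 17.5 and 20.2 CPM in Th0 control and 10.7, 7.02 and 7.01 in iTreg control, without overlap. It was the 1 member called in the fit of 12 libraries, a call lost in 11 of 19 alternatives with the sign kept (-1.28 ± 0.42, adjusted p = 0.0436, edgeR), where 31.4% of genes were called (11.5% lower and 19.9% higher), and leaving out a single library gave 0 to 13 calls (13 without iTreg Ezh2KO.165). CPM did not overlap between cultures for 10 members lower in iTreg, against 29.5% of all genes, and for 3 higher, against 39.4%. In the 10 libraries its change was -1.16 ± 0.14 (adjusted p = 7.135e-06, edgeR), and 3 members were called higher and 11 lower, where 66.8% of genes were called (35.1% higher and 31.8% lower). The control libraries alone gave 3 higher and 6 lower, with 53.4% of genes called. The 11 were Hist1h1c and 10 H4 genes, 5 of which form a set of near-identical counts. The 3 were Hist2h2be (1.26 ± 0.17), Hist2h3c1 (0.81 ± 0.27) and Hist4h4 (0.83 ± 0.24). Hist4h4, whose protein is the same H4, thus went against the Hist1 H4 genes: it read 1.51, 1.52 and 2.1 CPM in Th0 control and 3.35, 2.98 and 2.86 in iTreg control. In control cells none of the 12 H2A genes was called in either fit. All 30 S-phase genes had a change below 0 (median -0.88, 0 called, and 29 called lower in the 10 libraries), 3 of 8 B-cell genes were called lower, and Rpph1 changed by -2.43 ± 0.37 (adjusted p = 0.00165, edgeR). The part of these in the histone values was not tested.

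In Ezh2KO cells the members called between cultures in the fit of 12 libraries were mostly H2A genes. In the fit of 10 libraries the calls were spread over H2A, H2B, H3 and H4 genes. With all 12 libraries 13 members were called lower in iTreg and 1, Hist3h2a, higher (2.71 ± 0.86, adjusted p = 0.0445, edgeR), where 25.4% of genes were called (8.75% lower and 16.6% higher). Of the 13, 9 were H2A genes, 2 H2B and 2 H4, and 6 of the 9 H2A genes form the set of near-identical counts. Hist1h2af, at 7.76, 9.40 and 9.21 CPM in Th0 Ezh2KO and 4.25, 5.15 and 2.65 in iTreg Ezh2KO, had the smallest p (-1.16 ± 0.25, adjusted p = 0.0123, edgeR). CPM did not overlap between cultures for 40 members lower in iTreg, against 27.7% of all genes, and for 3 higher, against 30.6%. The count of calls fell to 6 without Th0 Ezh2KO.165, to 1 without Ezh2KO.174 and to 2 without Ezh2KO.175, and rose to 22 without iTreg control 177. In the 10 libraries 38 were called lower and 2 higher, where 57.6% of genes were called (28.9% lower and 28.8% higher), and the 38 held 10 of 12 H2A, 9 of 15 H2B, 9 of 12 H3 and 10 of 11 H4 genes. Hist1h4i changed by -0.57 ± 0.14 in this genotype. The Ezh2KO libraries alone called 0 members, with 4.78% of genes called and 20 members at an unadjusted p under 0.05 (edgeR). All 8 B-cell genes were called lower in iTreg Ezh2KO than in Th0 Ezh2KO, with sums of 4.07 to 5.98 CPM against 92.9 to 216. Rpph1 changed by -3.57 ± 0.37 (adjusted p = 0.000396, edgeR), and all 30 S-phase genes had a change below 0 (median -0.87, 0 called, and 27 called lower in the 10 libraries). The part of these in the histone values was not tested.

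Genes that make or handle histones were described from lists. Of 17 histone mRNA factors (NPAT, HINFP, SLBP, the U7 snRNP proteins and others), 0 were called with genotype in either culture in the 12 libraries, and Lsm10, a U7 snRNP protein, came nearest (0.31 ± 0.10 in iTreg, adjusted p = 0.0692, edgeR). In the 10 libraries 9 of the 17 were called lower in Th0 Ezh2KO, and 3 higher and 4 lower in iTreg Ezh2KO. Of all genes, 12% were called in Th0 and 16.7% in iTreg in the 12 libraries, and 51.6% and 57.1% in the 10. Those called lower in the 10 were 25.3% in Th0 and 28.3% in iTreg. Zfp473 changed by -0.36 ± 0.28 in Th0 and -0.55 ± 0.28 in iTreg, Hinfp by -0.17 ± 0.14 in Th0 and Npat by -0.17 ± 0.10 in iTreg, with no call for any of them in the 12 libraries.

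The histone variants are encoded outside the clusters, most of them by polyadenylated mRNAs. Of 11 tested, 2 were called lower in Th0 Ezh2KO, H2afv (-0.66 ± 0.12, adjusted p = 0.00695, edgeR) and H3f3a (-0.56 ± 0.11, adjusted p = 0.0107), which encode an H2A.Z and an H3.3. In iTreg Ezh2KO, 3 were called lower and 2 higher. Those lower were H2afv at -0.86 ± 0.12, H2afx, the H2A.X of the DNA damage response, at -0.82 ± 0.19 and H3f3a at -0.47 ± 0.11. H3f3b, which also encodes H3.3, went the other way without overlap. It read 398.6 to 406.8 CPM in iTreg control and 459.0 to 546.8 in iTreg Ezh2KO. In Th0 it read 620.6 to 671.9 CPM in control and 675.4 to 769.0 in Ezh2KO. H1f0 was at most 123.3 CPM in iTreg control and at least 153.8 in iTreg Ezh2KO. The fit of 10 libraries tested 12 of the variants. Of these, 2 were called higher and 7 lower in Th0, and 2 higher and 4 lower in iTreg. The shares of all genes called were 12% in Th0 and 16.7% in iTreg in the 12 libraries, and 51.6% and 57.1% in the 10. In the 10, 25.3% of all genes were called lower in Th0 and 28.3% in iTreg. Of 21 histone chaperones, 1 was called in each culture in the 12 libraries, Hjurp, which loads the centromeric H3 variant (-0.47 ± 0.13 in Th0 and -0.94 ± 0.13 in iTreg, adjusted p = 0.0367 and 0.000826, edgeR). With 10 libraries 1 chaperone was called higher and 10 lower in Th0, and 4 higher and 8 lower in iTreg. The shares of all genes in that fit were 26.3% higher and 25.3% lower in Th0, and 28.7% higher and 28.3% lower in iTreg. In Th0 the chaperones' calls were thus mostly lower, where those of all genes were split evenly. Atrx changed by -0.26 ± 0.12 in Th0 and -0.37 ± 0.12 in iTreg, and neither change was called in the 12 libraries.

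None of the 30 S-phase genes was called with genotype in either culture in the 12 libraries, and their medians were -0.08 in Th0 and -0.07 in iTreg. In the 10 libraries 4 were called higher and 9 lower in Th0, and 15 higher and 0 lower in iTreg, where the median was 0.16 while that of the 12 H2A members was -0.63. Of all genes in that fit, 26.3% were called higher and 25.3% lower in Th0, and 28.7% higher and 28.3% lower in iTreg. Of 18 G2 and M genes, 0 were called in Th0 and 1 lower in iTreg, and 14 and 11 were called lower in the 10 libraries.

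H3K27me3 over the histone genes was low in control Th0 cells. The density of ChIP reads, in CPM per kilobase (kb) of the interval, had a median of 0.30 over the 68 members and 0.850 over the other 22201 intervals. Of the 68 members, 34 were in the lowest 10% of all intervals, against 9.87% of the others. All 34 were among the 59 members of up to 2000 bases, and of other intervals of that size 23.6% were in the lowest 10%. No input or spike-in was used here, so a density is relative to the library's own total. The intervals are short, with a median of 532.5 bases, and most hold few reads: 59 of up to 2000 bases summed to 121 and 186 reads in control libraries 33 and 7. Their summed density was 0.279 and 0.384, against 1.29 and 1.48 for 3133 other intervals of that size. The medians were 0.242 for the 59 members and 1.07 for those others.

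The other genes in the Hist1 span were as a set not poor in the mark. The span holds 52 gene intervals that are not histone genes, and their median density was 1.17 in control cells, with 0 in the lowest 10% of all intervals. The 54 Hist1 members between them had a median of 0.287. Most of the 52 are vomeronasal receptor genes (Vmn1r) with no or almost no RNA reads, so the sets also differ in RNA level. The neighbours with the most RNA were Zfp322a (37.7 CPM), Abt1 (22.5) and Prss16 (20.1). Their control densities were 0.414, 0.303 and 3.91 CPM per kb. By family the medians were 0.169 for H4, 0.201 for H3, 0.251 for H2A, 0.443 for H2B and 0.446 for H1. Across the 63 members with RNA reads, the mark's density in control cells and the RNA level had a Spearman rho of -0.40. This is a description over genes that share libraries and, within sets, possibly reads.

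A pair of members stood out with high density. Hist3h2ba had 1.30 and 3.88 CPM per kb in control 33 and 7 (9 and 30 reads) and 0.745 and 0.578 in Ezh2KO.10 and Ezh2KO.9 (7 and 4 reads), and it was the 1 member whose density in both Ezh2KO libraries was below both controls, against 29.3% of all intervals. Hist1h2aa, a testis H2A, had 1.61 and 2.89 in control and 1.87 and 0.691 in Ezh2KO, and it had 2 RNA reads over all 12 libraries. Neither passed the filter for the test. In RNA from Th0, Hist3h2ba read 0.651, 0.519 and 0.573 CPM in control and 1.00, 1.08 and 0.562 in Ezh2KO, with overlap. Hist3h2a had 0 ChIP reads in all 4 libraries, where a count of 0 allows up to 3 per library, but its interval overlaps that of Trim17 and reads in an overlap may not have been assigned.

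In Ezh2KO cells the members' density was higher relative to the library than in control. The median over 68 members went from 0.30 to 0.62, that of the 52 other intervals in the Hist1 span from 1.17 to 1.18 and that of all other intervals from 0.850 to 0.937. The members' median percentile among all intervals was 10.3 in control and 10.2 in Ezh2KO, so their place in the order stayed low. Mean density was higher in Ezh2KO for 58 of 68 members and 55.7% of other intervals. For 34 members both Ezh2KO libraries were above both controls, against 44.8% of all intervals. Of the 59 members of up to 2000 bases, the mean was higher for 51, against 44.3% of other intervals of that size. Both Ezh2KO libraries were above both controls for 29 of the 59, against 20.1% of those others. Scaled by TMM instead of by library totals, the mean was higher for 54 of 68 members and 46.2% of other intervals, and both libraries for 27 members and 34.7% of other intervals. The summed density of the 59 short members was 0.279 and 0.384 in control and 0.644 and 0.512 in Ezh2KO.

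**Figure D5:**
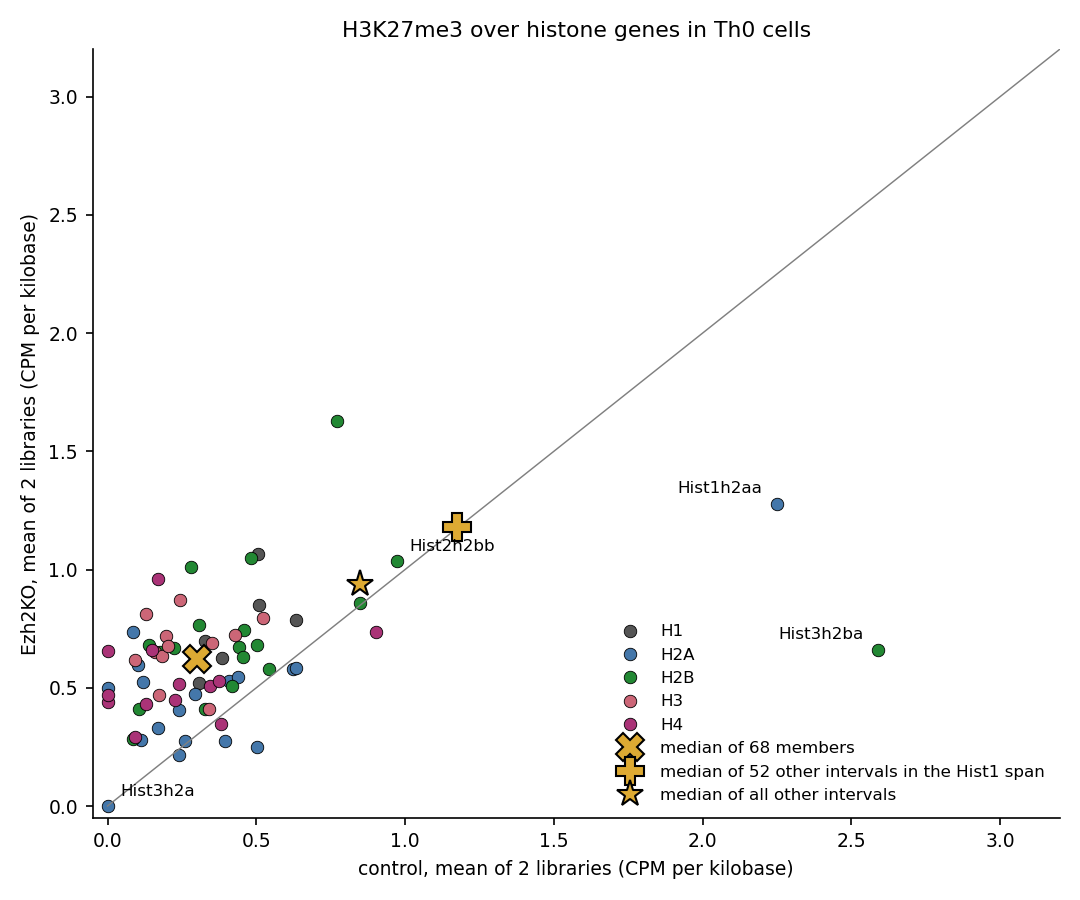
H3K27me3 density of the 68 histone genes in Th0 cells, in control (horizontal) and Ezh2KO (vertical), each the mean of 2 libraries in CPM per kilobase, coloured by family. Larger symbols are medians, the grey line is equality, and most members lie above it at low density, with Hist3h2ba (2.59 in control) far to the right.

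Only 12 of the 68 intervals had enough reads for the test. The edgeR fit called 2 higher in Ezh2KO and 0 lower, where 52.9% of 20376 intervals were called (32.2% higher and 20.6% lower, or 6570 higher and 4205 lower, and with TMM 4956 higher and 5699 lower). They were Hist2h2be, with 0.309 and 0.307 CPM per kb in control and 0.809 and 0.721 in Ezh2KO (1.31 ± 0.40, edgeR adjusted p = 0.0165), and Hist2h3c1, with 0.0985 and 0.309 in control and 0.762 and 0.591 in Ezh2KO (1.69 ± 0.56, adjusted p = 0.0232). Both sets of libraries were apart, and all values stayed below the median of the other intervals. The median change of all intervals was 0.21, so that relative to it these changes are smaller by that amount. Without either Ezh2KO library no member was called. The longer intervals of Hist1h2be and Hist2h2bb, which were among the members with the most reads, changed by 0.01 ± 0.21 and 0.09 ± 0.25, and Hist4h4 by -0.31 ± 0.35. In RNA of Th0 cells, Hist2h2be read 2.52, 2.67 and 2.1 CPM in control and 1.85, 2.27 and 2.22 in Ezh2KO, and Hist2h3c1 0.976, 1.11 and 1.11 against 0.850, 1.52 and 1.30, both with overlap.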

How the data were processed

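The deposited tables hold raw read counts per gene (RNA) and per gene interval (H3K27me3 ChIP). Per the submitters' processing notes, the authors used Trimmomatic 0.30, TopHat2 2.0.6 and featureCounts 1.4.2 for RNA, and Bowtie2 2.1.0 and featureCounts 1.4.2 for ChIP, on mm10. How reads in several gene copies were counted is not given in the sources used here.

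Counts were tested with edgeR 4.0.16 (quasi-likelihood test, 4 groups in 1 fit, TMM for RNA, library totals for ChIP, filterByExpr with a minimum count of 10, Benjamini-Hochberg adjusted p under 0.05), checked on simulated counts. Alternatives were other scalings, no filter, DESeq2 1.42.0, limma 3.58.1 with a block, and fewer libraries. SE is the log2 change over the square root of F. Members, 12 gene lists (155 of 160 symbols found) and tests were chosen with earlier results of these data known, so none is independent support. The genes named were Ezh2, the 12 members with the highest mean CPM, the 6 called members with the smallest p per RNA contrast, the 4 highest and 4 lowest in control H3K27me3 density among tested intervals with the 5 smallest p, all Hist3 and Hist4 members, the 3 smallest p per list and genotype contrast, and the 5 most alike genes (1 of them is not reported here), with predicted genes named Gm left out after their values were seen. Others were chosen after their values were seen. Counting intervals and floors cover counting error only.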

Additional observations from a re-analysis of the deposited data

How the results depend on the processing

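Counts of members called moved in every RNA comparison when 2 iTreg libraries were left out. Without iTreg Ezh2KO.165 and control 177, the counts were 13 for genotype in Th0 (0 with all libraries), 14 for genotype in iTreg (0), 23 for the interaction (0), 14 for culture in control cells (1) and 40 for culture in Ezh2KO cells (14). All genes called moved likewise, from 1536 to 6697, 2147 to 7409, 577 to 5347, 4027 to 8673 and 3262 to 7481. A fit of 6 libraries alone gave 15, 0, 9 and 0 for Th0, iTreg, control and Ezh2KO cells, with 6397, 539, 6500 and 596 of all genes called. DESeq2 gave 3 for genotype in iTreg, 6 for culture in control, 29 for culture in Ezh2KO and 1 for H3K27me3, and it called 2371, 1270 and 4959 genes for genotype in Th0, the interaction and culture in Ezh2KO. Library totals gave 1 for genotype in iTreg and 2 for culture in control, and no filter gave 0 for culture in control and 4 for H3K27me3 (2 with it). Leaving out a single library gave 0 to 1 members for genotype in Th0, 0 to 6 in iTreg (5 without Ezh2KO.165 and 6 without control 177), 0 to 0 for the interaction, 0 to 13 for culture in control, 1 to 22 for culture in Ezh2KO and 0 to 4 for H3K27me3 (4 without control 33). Among 35 values of named genes that were recomputed, Hist2h2be changed sign in iTreg without control 177 (0.26, edgeR adjusted p = 0.874), and single libraries gave -1.96 to 0.26. The other 34 kept their sign in all alternatives run, and over the 35 the alternatives gave 535 on the same side of the threshold, 55 newly past it and 44 no longer past it. Sign changes among other members included Hist3h2a with genotype in iTreg, which went from 0.70 to -0.27 without the 2 iTreg libraries, Hist4h4 between cultures in Ezh2KO from 0.21 to -0.09 and Hist3h2ba between cultures in control from 0.65 to -0.76. The cause was not tested.

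A title number is shared between cultures by 1 pair of libraries in each genotype (Ezh2KO.165 and control 177), and the labels do not say that it marks an animal. Deviations of same-numbered libraries correlated at 0.04 and -0.02. With the number as a replicate block (limma voom, estimated correlation -0.01), members called were 0 for genotype in Th0, 0 for genotype in iTreg, 0 for the interaction, 1 for culture in control and 19 for culture in Ezh2KO. Low counts limit the H3K27me3 values of the 56 members that were not tested.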
